A study of Mus musculus with 26 samples.

Results

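The platelet-derived growth factor (PDGF) system of the mouse comprises 4 ligand genes, Pdgfa, Pdgfb, Pdgfc and Pdgfd, and 2 receptor genes, Pdgfra and Pdgfrb. These 6 genes were taken by symbol from the 41442 gene rows of each of the RNA-seq count tables, and each was found in both tables. The fetal table holds 12 libraries of sorted Gli1+ mesenchymal cells from the mesonephros, in 4 groups of 3: female and male embryos at E14.5 and at E16.5, where E gives the day of embryonic development. The uterine table holds 6 libraries from the neonatal female uterus, labelled E19.5, of which 3 are Amhr2+ cells and 3 are Gli1+ cells. Gli1+ cells carried Gli1-CreER and Rosa-Tomato, a red reporter that this tamoxifen-dependent recombinase switches on in cells that express Gli1, a target gene of hedgehog signalling. Amhr2+ cells carried Amhr2-Cre, driven by the gene for the receptor of anti-Müllerian hormone, with the same reporter. Dams of either line received 1 mg of tamoxifen at E12.5 and again at E13.5, per the labels. A reporter switched on by recombination also marks the later descendants of the cells that expressed the driver, so the sort does not select on the level of Gli1 or Amhr2 at harvest. The labels do not say whether replicates came from separate litters or animals, and p-values then measure the spread between these libraries, which may be technical.

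PDGF ligands are secreted dimers that bring receptor chains together and start tyrosine phosphorylation inside the cell. PDGF-A and PDGF-C bind PDGFRα, PDGF-B binds PDGFRα and PDGFRβ, and PDGF-D binds PDGFRβ most strongly. PDGF-C and PDGF-D are secreted in a latent form, and their CUB domain has to be cut off by a protease before they bind. In many embryonic organs PDGFRα marks loose mesenchyme that answers to ligand from the neighbouring epithelium, while PDGFRβ marks perivascular cells that answer to PDGF-B from endothelium. The mesonephros holds the Wolffian and Müllerian ducts, the forerunners of the male and the female tract, and the design asks how the mesenchyme around them differs with sex and age and how the uterine populations differ.

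Library totals were 23382983 to 64602477 counts in the fetal table and 28709191 to 37541045 in the uterine table, and 3 counts corresponded to 0.0485 to 0.126 and 0.0778 to 0.102 counts per 1000000 (CPM). All 8 mesenchyme markers on a fixed list (Vim, Col1a1, Col1a2, Col3a1, Dcn, Lum, Twist1 and Tcf21) were above 5 CPM on average in every group. Gli1 itself averaged 184 CPM in E14.5 females, 228 in E14.5 males, 50.7 in females of E16.5 and 208 in males of that age, and 10.5 and 17.9 CPM in Amhr2+ and Gli1+ uterine cells. Amhr2 averaged 11.1 CPM in Amhr2+ and 4.10 CPM in Gli1+ uterine cells. Of the 8 endothelial markers only Emcn, or Emcn with Cdh5 in E16.5 males, averaged over 5 CPM in the fetal groups. Pecam1 averaged 0.699 to 1.39 CPM there. The highest of 5 platelet genes was Itga2b, which averaged 3.86 to 5.16 CPM in the fetal groups. Pf4 was at 0.706 CPM or less, and Ppbp was at 0 in E14.5 females and E16.5 males. At E16.5 Gp9, Itga2b and Pf4 were higher in females without overlap, and the other 2 overlapped. Without overlap in either direction were 38.3% of all genes. By the test 2 platelet genes were higher in E16.5 females, beside 13.2% of all genes. The 5 erythroid markers summed to 4.78 to 935 CPM across E14.5 female libraries, and to 2.96 to 11.2 CPM across E14.5 male libraries. The highest of them, Hbb-y, ran from 2.67 to 782 CPM in those female libraries. At E16.5 the sums were 9.16 to 15.8 CPM (female) and 3.77 to 6.04 CPM (male). In bulk libraries, fewer cells of a type and less RNA per cell cannot be told apart.

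The gene starts of the members are shown first, because the deposited ATAC-seq peaks run across the outermost start of some of them and not of others. ATAC-seq marks accessible DNA, and the deposited list joins the peaks of all 8 fetal samples, with no column for sample or height, so it cannot show differences between groups. Coordinates are on mm10, and the sequences are from RefSeq's GRCm38.p6, the same assembly. Each is printed 5′ to 3′ on the strand of the gene, with the bases under a peak in capitals. For Pdgfc and Pdgfd the 250 bases before the RefSeq start are given. For Pdgfra and Pdgfa the nearest peak upstream of the gene is given with 30 bases on either side.
Pdgfc (chr3:81036166-81036415, + strand): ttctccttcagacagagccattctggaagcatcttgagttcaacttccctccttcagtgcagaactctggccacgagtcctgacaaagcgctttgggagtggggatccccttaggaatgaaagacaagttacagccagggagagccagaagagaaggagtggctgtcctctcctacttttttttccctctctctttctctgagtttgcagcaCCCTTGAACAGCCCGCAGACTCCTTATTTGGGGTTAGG
Pdgfd (chr9:6168236-6168485, + strand): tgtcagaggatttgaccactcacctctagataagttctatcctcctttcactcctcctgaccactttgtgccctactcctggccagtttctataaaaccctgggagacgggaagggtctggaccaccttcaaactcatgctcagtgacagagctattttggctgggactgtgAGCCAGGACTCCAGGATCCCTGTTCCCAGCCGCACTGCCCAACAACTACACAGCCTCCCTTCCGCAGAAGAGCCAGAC
Pdgfra (chr5:75151219-75151403, + strand): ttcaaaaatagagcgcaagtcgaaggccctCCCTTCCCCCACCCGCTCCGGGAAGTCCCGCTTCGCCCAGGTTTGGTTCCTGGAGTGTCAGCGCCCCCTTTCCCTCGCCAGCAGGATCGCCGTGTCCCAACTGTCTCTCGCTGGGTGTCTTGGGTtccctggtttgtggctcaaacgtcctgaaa
Pdgfa (chr5:138997535-138997778, - strand): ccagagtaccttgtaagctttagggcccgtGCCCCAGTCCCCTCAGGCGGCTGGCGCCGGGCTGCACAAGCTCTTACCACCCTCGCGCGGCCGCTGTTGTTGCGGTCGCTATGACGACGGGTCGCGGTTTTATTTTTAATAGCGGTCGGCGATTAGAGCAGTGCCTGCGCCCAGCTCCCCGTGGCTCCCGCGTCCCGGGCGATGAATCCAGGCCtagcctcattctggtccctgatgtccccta

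Peaks ran across the starts of Pdgfc (chr3:81036378-81036899), Pdgfd (chr9:6168408-6168782) and Pdgfrb (chr18:61045031-61045417). No peak covered the start of Pdgfra (chr5:75152292). Its nearest upstream peak was centred at -981 bases from the start, and the 250 bases before its RefSeq start held no peak base. Across 32851 promoters of this length, 41.4% overlapped a peak. Pdgfa had a peak centred at -286 bases from its outermost start and another 2 inside the gene that overlap an exon. Pdgfb had a single peak, in an intron 2346 bases after its start. Counted from the start of any coding transcript, every member had a peak within 1 kb, from 1 each at Pdgfb, Pdgfc, Pdgfd and Pdgfrb to 3 at Pdgfa and 5 at Pdgfra, which has 7 such starts. In all, 32 peaks of the 71040 lay in a member or within 5 kb of it. Inside the genes there were 8 in Pdgfd, 6 in Pdgfrb, 5 in Pdgfc, 4 in Pdgfra, 2 in Pdgfa and 1 in Pdgfb.

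RefSeq promoter entries matched 4 of the 6 members, Pdgfb and Pdgfrb being without one. The TATA box letters TATAAA stood in the Pdgfd window, first base at -160 (lower case above), and in 12.4% of all promoters. GC box letters, GGGCGG, were found in the windows of the RefSeq starts of Pdgfa and in 32.7% of all promoters. Letters of the GLI consensus, GACCACCCA, the motif of the transcription factors that act downstream of hedgehog, were in no member promoter and in 0.225% of all promoters. In 200-base windows at peak centres the GLI letters were in 0 of the 32 member peaks and in 0.331% of 70999 peaks on assembled chromosomes, and the AP-1 letters TGANTCA were in 0 of 32 and in 5.94%. Each motif was searched on both strands, and a match or its absence describes only these letters.

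**Figure D1:**
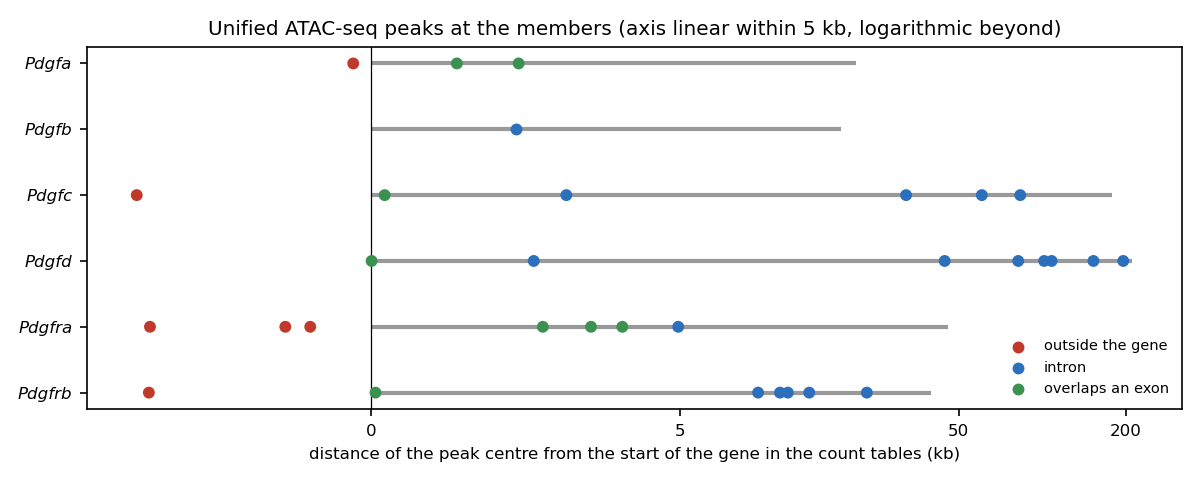
Positions of the ATAC-seq peaks at the PDGF genes. The x axis gives the distance of each peak centre from the start of the gene in the count tables, in kb, linear within 5 kb of the start and logarithmic beyond. Grey lines span the gene bodies and dots are peaks, coloured by whether they lie outside the gene, in an intron or over an exon. Pdgfc, Pdgfd and Pdgfrb have a peak at the start, whereas the nearest upstream peak of Pdgfra is centred at -981 bases from its outermost start.

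Levels of different genes were compared per kb of exon. In all 6 groups both receptors stood above every ligand. In E14.5 females Pdgfrb reached 103 ± 3.69 CPM per kb (SD, n = 3, as for all group values here) and Pdgfra 98.7 ± 2.96, with overlapping libraries. Pdgfc followed at 12.3 to 12.8, Pdgfd at 5.63 ± 0.292, Pdgfa at 3.10 ± 0.289 and Pdgfb at 0.139 ± 0.0527. In E16.5 males Pdgfra led at 105 to 129 CPM per kb and Pdgfrb was at 58.2 ± 2.76. The order of the receptors depends on the length chosen: the exons of Pdgfra together span 10024 bases, its longest coding transcript 6834. Per kb of the longest coding transcript, an alternative chosen after the data were seen, Pdgfra led in all 4 fetal groups, with libraries that overlapped those of Pdgfrb in E16.5 females. Pdgfrb led in both uterine groups with either length. Comparisons of 1 gene between groups, which follow, do not depend on the length.

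Pdgfra, the receptor of PDGF-A and PDGF-C, was lower in female than in male mesenchyme at E16.5 and fell with age in females. Female libraries had 972, 972 and 1023 CPM at E14.5 and 659, 668 and 611 CPM at E16.5. Male libraries had 1074, 942 and 1057 CPM at E14.5 and 1049.8, 1289 and 1185 CPM at E16.5. The E14.5 groups overlapped, while every E16.5 female library was below every other fetal library. At E16.5 the female level was 1.82-fold lower (log2 fold change -0.86, SE 0.0789, edgeR adjusted p = 6.85e-07). At E14.5 the difference was -0.05 (95% interval -0.22 to 0.12, edgeR adjusted p = 0.799). From E14.5 to E16.5 female Pdgfra fell by 0.61 on the log2 scale (SE 0.0787, edgeR adjusted p = 2e-05). In males the difference with age was 0.20 (edgeR adjusted p = 0.0836). The change with age differed between the sexes, by -0.81 on the log2 scale (SE 0.111, edgeR adjusted p = 0.00018 for the interaction).

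Pdgfrb, the receptor of PDGF-B and PDGF-D, went the other way between the sexes. The E14.5 libraries had 556, 544 and 584 CPM (female) and 457, 424 and 451 CPM (male). The E16.5 libraries had 496, 523 and 465 CPM (female) and 317, 335 and 305 CPM (male). At neither age did the sexes overlap. Females were 1.27-fold higher at E14.5 (log2 0.34, SE 0.0642, edgeR adjusted p = 0.00439) and 1.55-fold higher at E16.5 (log2 0.63, SE 0.0644, edgeR adjusted p = 2.05e-06). With age Pdgfrb fell by 0.48 in males (SE 0.0643, edgeR adjusted p = 4.91e-05). In females it fell by 0.18 (SE 0.0642, edgeR adjusted p = 0.0339), a call that 7 of the alternatives ended, with adjusted p values up to 0.136. The interaction was 0.29 (SE 0.0907, edgeR adjusted p = 0.0527). With the replicate number as a block it was 0.29 with an adjusted p of 0.0190 in edgeR.

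Because Pdgfrb is also a marker of pericytes, a list of 7 other mural cell genes was set beside it. At E16.5 their summed level spanned 504 to 559 CPM across the female and 491 to 595 CPM across the male libraries, ranges that overlap. The E14.5 sums spanned 534 to 543 CPM (female) and 485 to 515 CPM (male). The list held genes of both directions. Notch3, the most abundant of them in every group, ran with Pdgfrb, at 292 to 323 CPM in female and 234 to 277 CPM in male libraries of E16.5 (log2 0.28, edgeR adjusted p = 0.00621) and at 368 to 374 against 311 to 343 CPM at E14.5 (log2 0.19, edgeR adjusted p = 0.14). Cspg4, the gene of the pericyte proteoglycan NG2, ran against it, at 71.2 ± 2.11 CPM in female and 108 ± 13.4 CPM in male libraries of E16.5 (log2 -0.60, edgeR adjusted p = 2.55e-05), as did Kcnj8 (log2 -0.38, edgeR adjusted p = 0.0265). The libraries of the other 4 overlapped between the sexes at that age. The part of mural cells in the Pdgfrb difference was not tested.

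The receptors were compared within each library by the number of Pdgfra reads per Pdgfrb read, a ratio that no scaling of the library changes. Female libraries had ratios of 1.75, 1.79 and 1.75 at E14.5 and of 1.33, 1.28 and 1.32 at E16.5. Male libraries had ratios of 2.35, 2.22 and 2.35 at E14.5 and of 3.31, 3.85 and 3.89 at E16.5. The male ratio thus stood 2.81-fold above the female at E16.5 (log2 difference of females against males -1.49) and 1.31-fold at E14.5 (-0.39). It fell 1.35-fold with age in females and rose 1.59-fold in males, without overlap of libraries in any of these 4 comparisons. The exact two-sided permutation p was 0.1 for each, the smallest that 3 against 3 libraries can give. With replicate numbers as pairs, the exact permutation p between the sexes at E16.5 was 0.25, the smallest that 3 pairs can give. In the uterus the ratio was 1.12, 1.09 and 1.24 in Amhr2+ and 1.02, 1.19 and 1.17 in Gli1+ cells, which overlapped (exact permutation p = 0.9).

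**Figure D2:**
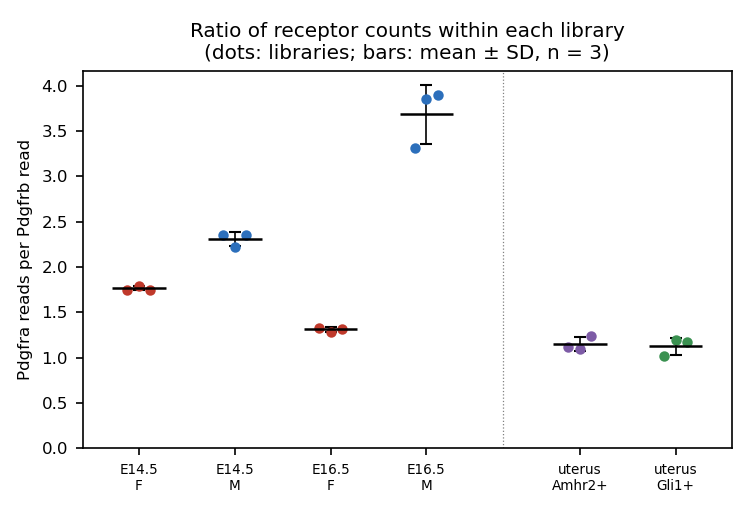
Pdgfra reads per Pdgfrb read in each library. The y axis is the ratio of counts, dots are libraries, and bars give the mean ± SD of 3 libraries for females (F) and males (M) at each age and for Amhr2+ and Gli1+ cells of the uterus. The 4 fetal groups do not overlap, from 1.31 ± 0.0268 in females to 3.68 ± 0.322 in males, both at E16.5.

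Pdgfa, a ligand of PDGFRα, was lower in females at both ages. Female libraries held 8.65, 10.1 and 10.3 CPM at E14.5 and 7.18, 8.35 and 9.5 CPM at E16.5. Male libraries held 14.2, 15.9 and 19.7 CPM at E14.5 and 19.9, 19.2 and 24.9 CPM at E16.5. The sexes overlapped at neither age. The female level was 1.73-fold lower at E14.5 (log2 -0.79, SE 0.143, edgeR adjusted p = 0.00329) and 2.56-fold lower at E16.5 (log2 -1.36, SE 0.140, edgeR adjusted p = 2.5e-06). Neither sex passed the threshold with age, at -0.21 in females and 0.36 in males (edgeR adjusted p = 0.264 and 0.0712). The interaction was -0.57 (SE 0.199, edgeR adjusted p = 0.0878), and -0.58 with an adjusted p of 0.00742 with the replicate number as a block in edgeR.

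The reads of Pdgfa carry a limit that those of the other members do not. RP23-451A12.1, which the tables place at chr5:138995056-139000577 on the opposite strand, covers 813 of the 3119 exon bases of Pdgfa. How many of these bases lie in exons of RP23-451A12.1 is not given here. The fetal kit keeps no strand, so where exons of both genes overlap, strand cannot assign the reads to either gene. RP23-451A12.1 had counts of the same order as Pdgfa, up to 151% of it in a fetal library, and averaged 13.1, 17.2, 9.85 and 19.3 CPM in E14.5 females, E14.5 males, E16.5 females and E16.5 males. It was likewise lower in females, by -0.40 at E14.5 and by -0.97 at E16.5 on the log2 scale (edgeR adjusted p = 0.019 and 1.29e-06). For the other members, overlapping genes held at most 11.1% of the member's counts in any library, at Pdgfb, and under 1% elsewhere, at most 0.698% at Pdgfd.

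Most smooth muscle markers were lower in females, as Pdgfa was. Over 6 genes (Acta2, Tagln, Myh11, Cnn1, Actg2 and Des) the summed level ran from 302 to 326 CPM in the female and from 607 to 888 CPM in the male libraries of E14.5. The E16.5 libraries ran from 465 to 567 CPM (female) and from 1716 to 2893 CPM (male). At both ages 5 of the 6 were lower in females without overlap of libraries. Without overlap in either direction were 27.2% of all genes at E14.5 and 38.3% at E16.5. By the test 3 were lower in females at E14.5, beside 3.69% of all genes, and 5 at E16.5, beside 14.1%. Des, the gene of desmin, did not share this difference (log2 -0.07 and 0.06, edgeR adjusted p = 0.608 and 0.51). With age in females 3 of the 6 rose (21.0% of all genes) and 1 fell (18.6%). In males all 6 rose (13.1% of all genes). Pdgfa did not pass with age in females (log2 -0.21, edgeR adjusted p = 0.264) or in males (log2 0.36, edgeR adjusted p = 0.0712). None of the 6 was at 0 in any group, and Acta2, smooth muscle actin, was the most abundant, averaging 275 CPM (female) and 1808 CPM (male) at E16.5. Epithelium is a source of PDGF-A in other organs, and 9 epithelial markers summed to 30.9 to 35.6 CPM in E14.5 females against 45.5 to 54.1 CPM in E14.5 males, and to 24 to 32.6 CPM against 33.3 to 40.8 CPM at E16.5. At each age 7 of these 9 overlapped between the sexes. At each age 1 passed, lower in females, beside 3.69% of all genes at E14.5 and 14.1% at E16.5. Those lower in females without overlap were Krt18 and Krt19 at E14.5, and Krt18 and Krt8 at E16.5. Epcam averaged 2.76 to 3.42 CPM in the fetal groups and Cdh1 0.414 to 0.603 CPM. The part of these cells in the sex difference of Pdgfa, and of the other members at E16.5, was not tested.

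Pdgfc, the other ligand of PDGFRα, differed between the sexes at E16.5. The E14.5 libraries, 63.1, 62.5 and 65.4 CPM (female) and 71.1, 58.8 and 56.4 CPM (male), overlapped. The E16.5 libraries, 40.9, 41.8 and 36.7 CPM (female) and 77.5, 70.5 and 67.2 CPM (male), left a gap between the sexes. Females were 1.80-fold lower at E16.5 (log2 -0.85, SE 0.0873, edgeR adjusted p = 2.34e-06) after a fall of 0.68 from E14.5 (SE 0.0878, edgeR adjusted p = 2.28e-05). The difference with age in males was 0.21 (edgeR adjusted p = 0.0934), and the interaction was -0.89 (SE 0.123, edgeR adjusted p = 0.000202). Over the 12 fetal libraries the log2 levels of Pdgfc and Pdgfra had a Pearson correlation of 0.93, the highest among the 15 pairs of members. That is a description of 12 libraries that fall into 4 groups.

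Pdgfd, the ligand of PDGFRβ, had the largest change with age among the members. Female libraries went from 17.4, 17.1 and 18.8 CPM at E14.5 to 53.1, 52.5 and 54.8 CPM at E16.5. Male libraries went from 21.8, 19.8 and 24.2 CPM to 47.7, 42.6 and 38.8 CPM. All E16.5 libraries were above all E14.5 libraries. The rise was 3.01-fold in females (log2 1.59, SE 0.0901, edgeR adjusted p = 3.43e-09) and 1.96-fold in males (log2 0.97, SE 0.0876, edgeR adjusted p = 7.43e-07), and it was larger in females by 0.62 on the log2 scale (SE 0.124, edgeR adjusted p = 0.00398 for the interaction). At E16.5 females were 1.24-fold higher (log2 0.31, SE 0.0851, edgeR adjusted p = 0.012), a call that was lost without E16.5 male replicate 3 (0.23, adjusted p = 0.0758). At E14.5 the difference had the other sign and missed the threshold (-0.30, edgeR adjusted p = 0.0629).

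Pdgfb, the ligand of both receptors and in most tissues a product of endothelium and platelets, was barely detected. It had 10 to 52 counts in each fetal library and 12 to 36 in each uterine library. The group means were 0.577 ± 0.219 CPM in E14.5 females, 0.722 ± 0.0772 in E14.5 males, 0.580 ± 0.134 in females of E16.5 and 0.710 ± 0.238 in males of that age. The lowest library, with 10 counts, has a 95% Poisson interval of 0.160 to 0.614 CPM, which covers counting error only. It missed the threshold in all 6 comparisons. At E14.5 its log2 difference between the sexes had a 95% interval of -1.07 to 0.40, a wide range of differences with which these libraries are compatible.

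**Figure D3:**
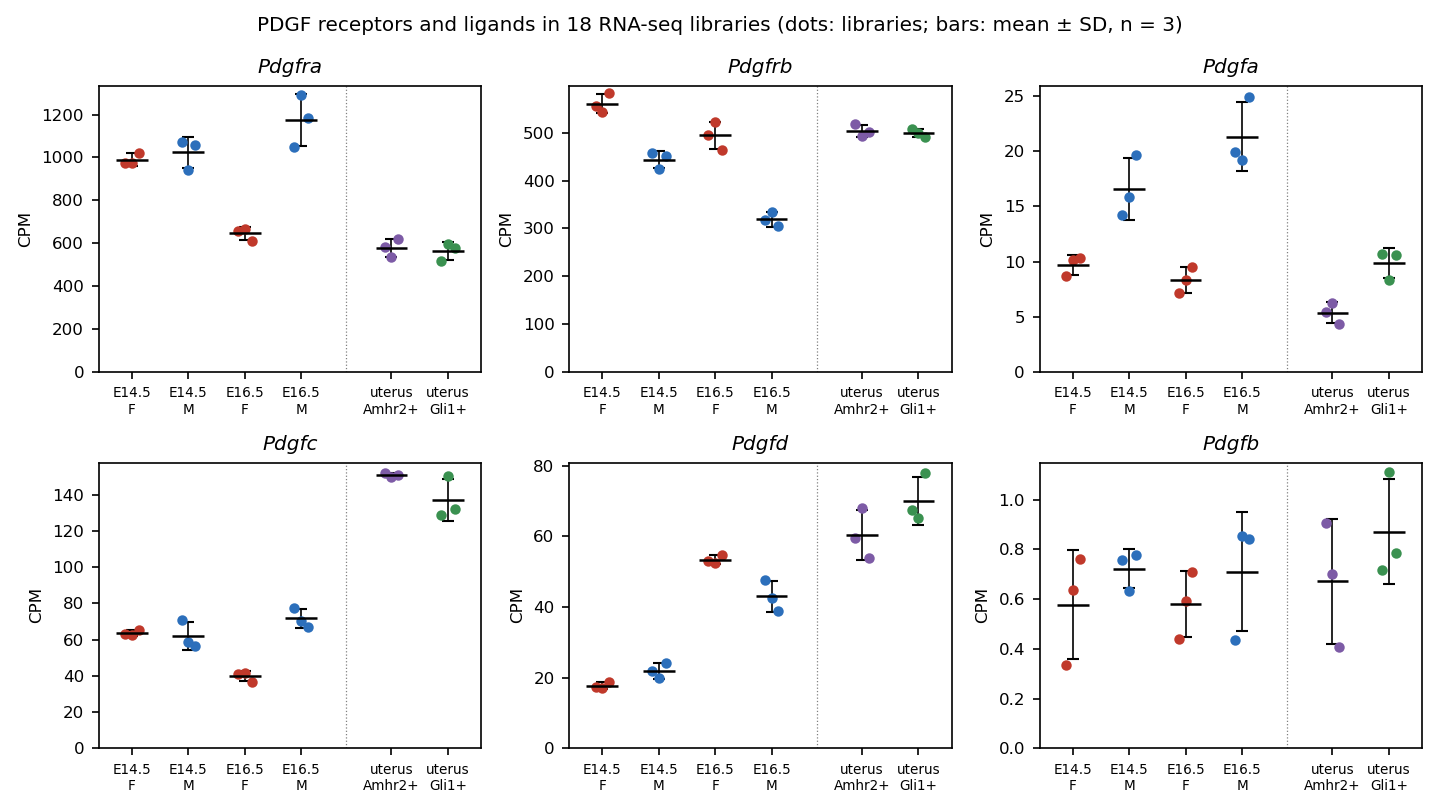
Levels of the 6 members in each library. The y axes give CPM, each starting at 0 with its own scale, for females (F) and males (M) at E14.5 and E16.5 and for Amhr2+ and Gli1+ cells of the uterus, a separate table right of the dotted line. Dots are libraries and bars the mean ± SD of 3. At E16.5 the female dots lie below the male dots for Pdgfra, Pdgfa and Pdgfc and above them for Pdgfrb and Pdgfd.

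The makeup of the ligand pool is given as a description, with no test. As shares of the summed ligand level per kb, Pdgfc made up 58.5 ± 1.09% in E14.5 females and 49.5 ± 5.37% in E14.5 males, and Pdgfd 26.3 ± 0.533% and 28.2 ± 1.93%. At E16.5 Pdgfd held 61.5 ± 1.22% in females, ahead of Pdgfc at 28.4 ± 2.12%. In E16.5 males they were level, with 39.2 ± 2.37% for Pdgfd and 40.5 ± 1.18% for Pdgfc, in libraries that overlapped. Pdgfa held 13.4 to 15.3% in E14.5 females, 21.6 ± 3.64% in E14.5 males, 9.68 ± 1.26% in females of E16.5 and 19.7 ± 3.43% in males of that age. Pdgfd also led in E16.5 females per kb of the longest transcript, at 52.4% against 34.6% for Pdgfc. In E16.5 males that length put Pdgfc ahead, at 45.5% against 30.7%. In E14.5 males it put Pdgfa ahead of Pdgfd, at 24.5% against 21.2%, in libraries whose levels overlapped.

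**Figure D4:**
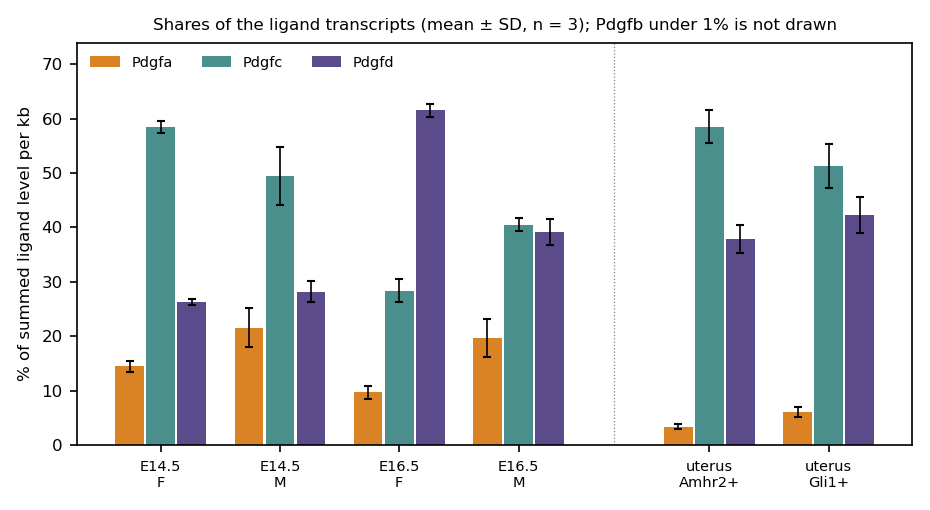
Shares of Pdgfa, Pdgfc and Pdgfd in the summed level of the 4 ligands. The y axis gives percent of the summed CPM per kb of exon, bars are means of 3 libraries and lines the SD, for females (F) and males (M) at each age and for the uterine populations. Pdgfd takes 26.3% in E14.5 females and 61.5% in E16.5 females.

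Set against all tested genes, 2 of the 6 members passed an adjusted p of 0.05 between the sexes at E14.5, where 6.28% of 17858 genes did. Of these, 1 was higher in females, as were 2.59% of genes, and 1 lower, as were 3.69%. At E16.5 it was 5 of 6, against 27.3% of all genes, with 2 higher (13.2% of genes) and 3 lower (14.1%). With age, 4 of 6 passed in females, against 39.6% of genes, with 1 higher (21.0% of genes) and 3 lower (18.6%). Male libraries gave 2 of 6, against 23.3%, with 1 higher (13.1% of genes) and 1 lower (10.2%). The interaction had 3 of 6, against 10.0%, with 1 positive (4.66% of genes) and 2 negative (5.36%). The median log2 difference of the members was -0.18 and -0.57 between the sexes at E14.5 and E16.5, and -0.20 and 0.20 with age in females and in males. The medians over all genes lay between -0.0142 and 0.00627 in these comparisons. The sexes had no overlap of libraries at 3 members at E14.5 and 5 at E16.5, against 27.2% and 38.3% of all genes. The ages had none at 4 members in females and 2 in males, against 56.6% and 34.9%. Comparisons that share libraries, such as the sex difference at E16.5 and the age difference in females, are not independent of each other.

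**Figure D5:**
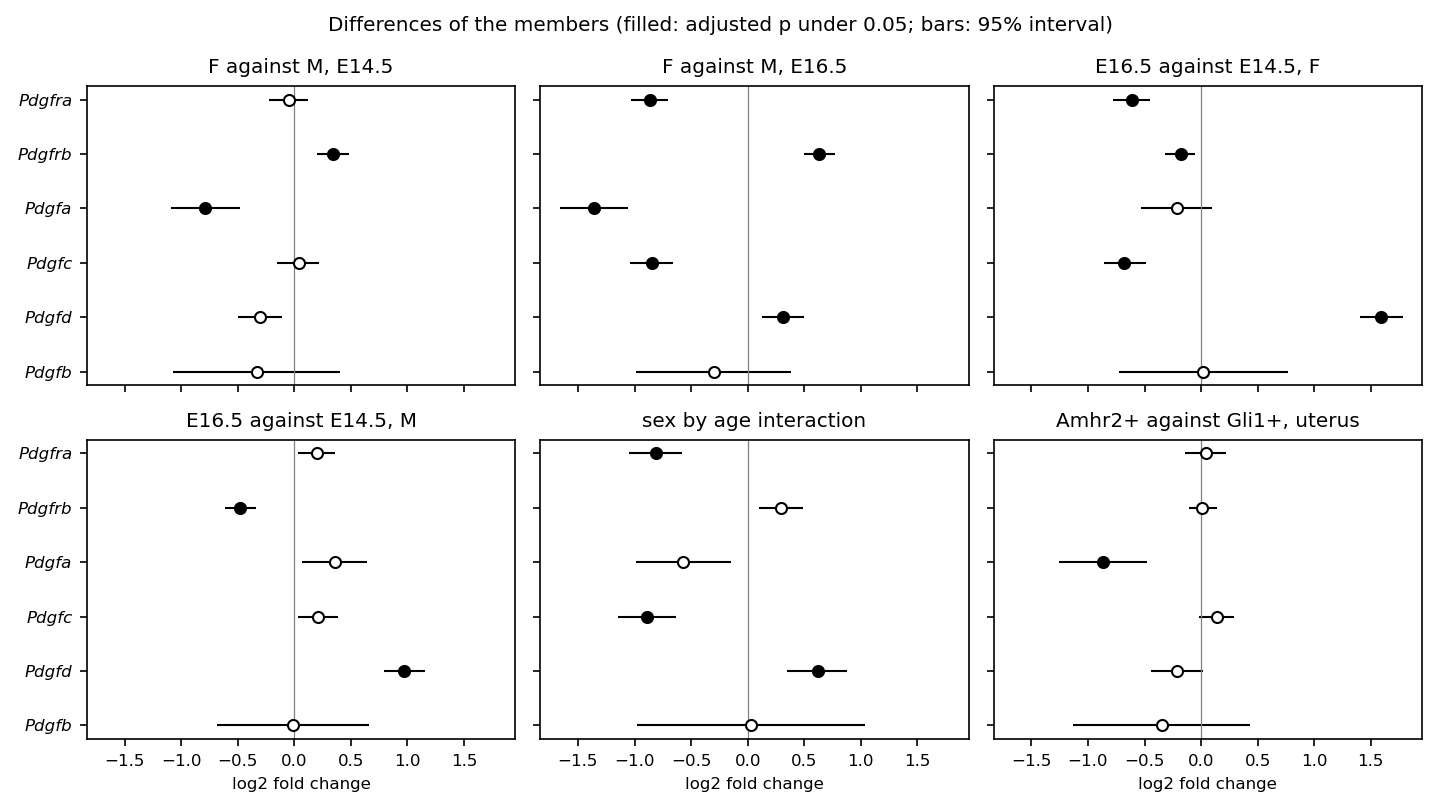
Log2 fold changes of the members in the 6 comparisons. Each panel is a comparison, the x axis gives the log2 fold change, lines are 95% intervals, not adjusted for the number of genes, and filled circles passed an adjusted p of 0.05 in edgeR. Pdgfa, Pdgfc and Pdgfra lie left of 0 and Pdgfrb and Pdgfd right of it for females against males at E16.5.

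In the neonatal uterus, Pdgfa was the member that passed the test between Amhr2+ and Gli1+ cells. It was at 5.47, 6.26 and 4.34 CPM in Amhr2+ cells and at 10.7, 8.30 and 10.6 CPM in Gli1+ cells, which did not overlap. The Amhr2+ level was 1.83-fold lower (log2 -0.87, 95% interval -1.26 to -0.48, edgeR adjusted p = 0.00798). RP23-451A12.1 on the opposite strand was lower too (log2 -0.72, edgeR adjusted p = 0.0298), with up to 168% of the counts of Pdgfa. The uterine kit keeps strand, but its use in counting is not given in the sources used here. The 6 smooth muscle markers summed to 1122 to 1769 CPM in Amhr2+ and 2121 to 2340.4 CPM in Gli1+ cells. Of these, Acta2, Actg2 and Myh11 were lower in Amhr2+ cells without overlap, and Acta2 and Actg2 passed (edgeR adjusted p = 0.0242 and 0.00238), while the libraries of Tagln, Cnn1 and Des overlapped. The 9 epithelial markers summed to 72.2 to 74.6 and 32.4 to 44.1 CPM, with 4 higher in Amhr2+ cells without overlap and 5 overlapping. The 8 mesenchyme markers summed to 26599 to 28645 CPM in Amhr2+ and 56756 to 64084 CPM in Gli1+ cells. Of these, 7 were lower in Amhr2+ cells without overlap and passed, while Twist1 overlapped. Over all genes 44.4% had no overlap in either direction. By the test 13.7% of all genes were lower in Amhr2+ cells and 10.1% higher. The part of any of these cell types in the difference of Pdgfa was not tested.

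The receptors had closely similar levels in the uterine populations. Pdgfra was at 581, 536 and 621 CPM in Amhr2+ and 519, 596 and 577 CPM in Gli1+ cells, and the log2 difference was 0.04 with a 95% interval of -0.14 to 0.22 (edgeR adjusted p = 0.763). Pdgfrb was at 518, 493 and 502 CPM against 508, 500.4 and 492 CPM, a difference of 0.01 with an interval of -0.11 to 0.14 (edgeR adjusted p = 0.889). These intervals, not adjusted for the number of genes, give the range of differences with which the libraries are compatible. Pdgfc had 152, 149.7 and 151 CPM in Amhr2+ and 129, 150.3 and 132 CPM in Gli1+ cells (log2 0.14, edgeR adjusted p = 0.185). Pdgfd had 59.7, 68.0 and 53.9 CPM against 67.4, 65.1 and 77.9 CPM (log2 -0.21, edgeR adjusted p = 0.166). Pdgfb averaged 0.672 ± 0.252 and 0.871 ± 0.214 CPM (edgeR adjusted p = 0.493). In total 1 of 6 members passed, against 23.9% of 16195 genes. It was lower in Amhr2+ cells, as were 13.7% of genes, while none was higher, as 10.1% were. Among the members, 1 of 6 had no overlap of libraries, against 44.4%. Without Gli1+ replicate 2, Pdgfc passed as well (edgeR adjusted p = 0.0294). Per kb, Pdgfc was the leading ligand in both populations, at 58.5 ± 3.05% and 51.3 ± 3.96% of the ligand level.

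Around the members, a list of 48 genes of the PDGF pathway and its relatives was examined, of which 47 could be tested. It holds 7 genes of ligand processing and co-binding, 23 adaptors and enzymes that dock on the receptors, 7 genes of receptor down-regulation, 3 related class III receptors and 8 genes of VEGF, the closest relative of the PDGF ligands. Between the sexes 2 passed at E14.5, both of the VEGF group, or 4.26% of the list beside 6.28% of all tested genes. Vegfa was higher in females (308 ± 7.10 against 221 ± 23.8 CPM, log2 0.48, edgeR adjusted p = 0.00309) and Pgf, placental growth factor, was lower (9.71 ± 0.871 against 17.3 ± 2.1 CPM, log2 -0.84, edgeR adjusted p = 0.000121). At E16.5, 10 were higher in females (21.3% of the list, beside 13.2% of all genes), 8 lower (17.0%, beside 14.1%) and 29 did not pass.

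Among the 7 genes of ligand processing and co-binding, 3 were higher in E16.5 females (42.9%, beside 13.2% of all genes). The other 4 did not pass. Plau, which encodes urokinase, a protease that activates PDGF-D, had 8.78 ± 0.903 CPM in the female and 5.11 ± 1.42 CPM in the male libraries (log2 0.79, edgeR adjusted p = 0.00221). Plat, the gene of tissue plasminogen activator, which activates PDGF-C, was at 139 ± 5.04 and 97.9 ± 8.55 CPM (log2 0.50, edgeR adjusted p = 5.03e-05). The third was Nrp1, a co-receptor of PDGF and VEGF ligands, at 221 ± 1.29 and 163 ± 17.4 CPM (log2 0.44, edgeR adjusted p = 0.000415). Plat and Nrp1 were named after their values were seen. The median log2 difference of these 7 genes was 0.44, beside 0.00627 over all tested genes. Of the class III receptors, Csf1r had 7.71 ± 2.99 CPM in female and 2.01 ± 0.612 CPM in male libraries of E16.5, higher in females (log2 1.92, edgeR adjusted p = 0.00211). Csf1r is the colony-stimulating factor receptor of macrophages, whose 7 markers summed to 26.5 to 67.5 CPM (female) and 11.8 to 45.7 CPM (male) at E16.5. Most of that sum was Cd68, whose libraries overlapped (34.5 ± 17.1 and 30.8 ± 19.2 CPM). The lower markers Adgre1, C1qa, Lyz2, Ptprc and Tyrobp were higher in females without overlap. Without overlap in either direction were 38.3% of all genes. By the test 4 of the 7 were higher in females, beside 13.2% of all genes. Adgre1, a macrophage surface receptor gene, was at 1.84 ± 0.737 against 0.375 ± 0.163 CPM (log2 2.25, edgeR adjusted p = 0.0024). These markers thus moved with Csf1r, and the part of macrophages in its difference was not tested. The lymphatic receptor Flt4 was lower (1.72 ± 0.357 against 3.17 ± 0.287 CPM, log2 -0.88, edgeR adjusted p = 0.00466).

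With age in females 8 genes of the list rose (17.0%, beside 21.0% of all genes), 13 fell (27.7%, beside 18.6%) and 26 did not pass. In males 6 rose (12.8%, beside 13.1%), 5 fell (10.6%, beside 10.2%) and 36 did not pass, shares close to those of all genes. Sparc, a matrix protein that binds PDGF-B, rose in both sexes, in females from 1163 ± 17.1 to 2776 ± 223 CPM (log2 1.26, edgeR adjusted p = 5.2e-08) and in males from 1434 ± 158 to 2787 ± 276 CPM (log2 0.96, edgeR adjusted p = 1.24e-06). Vegfa fell by 0.93 in females and by 0.76 in males (edgeR adjusted p = 7.4e-07 and 9.08e-06). Flt1 fell in males, to 0.410 ± 0.106 from 1.34 ± 0.118 CPM (edgeR adjusted p = 0.00786). The docking group had 4 genes that rose and 9 that fell in females, and 4 and 2 in males. The interaction passed for 4 genes, 3 positive and 1 negative, or 8.51% of the list beside 10.0% of all genes. Among them were Nrp1 (0.55, edgeR adjusted p = 0.00328) and the regulatory subunits of PI3 kinase Pik3r1 (-0.58, edgeR adjusted p = 0.00191) and Pik3r2 (0.44, edgeR adjusted p = 0.0272).

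In the uterus 5 of the list were higher in Amhr2+ cells (10.6%, beside 10.1% of all genes), 11 lower (23.4%, beside 13.7%) and 31 did not pass. The largest difference was that of Vegfd, a lymphangiogenic ligand, at 6.71 ± 1.04 CPM in Amhr2+ and 55.2 ± 8.58 CPM in Gli1+ cells (log2 -3.03, edgeR adjusted p = 1.02e-05). Plau was higher in Amhr2+ cells (55.3 ± 6.43 against 29.6 ± 8.54 CPM, log2 0.90, edgeR adjusted p = 0.0166), and Sparc was lower (2174 ± 80.5 against 3964 ± 409.9 CPM, log2 -0.87, edgeR adjusted p = 0.000224). The median log2 difference over the list was -0.04, beside -0.00168 over all tested genes.

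For each member above 5 CPM on average, the 3 genes with the most similar log2 levels over the 12 fetal libraries were taken from 11313 genes, as a description. Pdgfra was closest to Fat3, an atypical cadherin (r = 0.989), then to the kinase gene Peak1 and the potassium channel gene Kcnd3 (0.983 each). Among the genes closest to Pdgfrb were Uph (0.984) and Tmem200a (0.978). Pdgfa was closest to Pik3r3, a regulatory subunit of PI3 kinase (0.979), the chemokine receptor gene Ackr3 (0.968) and Phf10 (0.968). Pdgfc was closest to a second row with the symbol Arhgap26 (0.967), Pls3, an actin-bundling plastin (0.964), and Eml1 (0.962). Pdgfd was closest to Cntn6, a neural contactin (0.996), Rassf2 (0.993) and the doublecortin gene Dcx (0.991). The log2 change of Cntn6 with age was 4.01 (female) and 2.35 (male), beside 1.59 and 0.97 for Pdgfd. These correlations are carried by the differences between 4 groups and rest on shared libraries.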

How the data were processed

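The authors deposited raw read counts per gene for 18 RNA-seq libraries in 2 tables and a list of ATAC-seq peak positions, which has no sample or score column. Per the submitters' processing notes, which give neither roles nor order, the tools include STAR 2.5, featureCounts of Subread 1.5.0-p1, Bowtie 1.2 and MACS2 2.1.1, and the build is mm10. Per the labels' protocols the fetal kit was non-stranded and the uterine kit stranded, so the tables were fitted separately. The use of strand in counting is not given in the sources used here.

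Groups and replicate numbers came from the sample titles. Of the 41442 rows in each table, 64 share a symbol with another row, and none were merged. Genes were kept by filterByExpr, scaled by TMM and tested in edgeR 4.0.16 (R 4.3.3) by its robust quasi-likelihood method, as 1 model of 4 fetal group means (17858 genes) and 1 of 2 uterine group means (16195 genes). P-values had Benjamini-Hochberg adjustment over all tested genes, and calls are at 0.05. The SE is the size of the log2 fold change over the root of F, and 95% intervals use the t distribution with the degrees of freedom of that test. CPM uses the TMM-scaled library size, and lengths are from GENCODE vM21. The receptor ratio was compared by an exact permutation test (scipy 1.17.1). The fit was tested on simulated counts.

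The members and the gene lists were chosen with earlier results of these data known. All 6 members were named, with the 3 genes most correlated with each over the fetal libraries (both at a mean of at least 5 CPM), and the 3 pathway genes with the largest called changes per comparison. In the correlated genes, 1 is not reported here. Replicate numbers were checked as pairs by the correlation of deviations from the group means. At E16.5 same-numbered libraries of the sexes had correlations of 0.28, 0.11 and 0.40, all above 0.1, which met the rule for pairs there. No label says what a number shares, and female library 2 had a correlation of 0.11 with male library 1 too. The main fits and the main permutation test of the ratio used no pairs. The block alternative used the number at both fetal ages and in the uterus. The alternatives were DESeq2 1.42.0, library size as the only scaling, no low-count filter, the replicate number as a block, limma-voom (limma 3.58.1), only the libraries compared, and each library left out in turn.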

Additional observations from a re-analysis of the deposited data

Results flagged for a closer look

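The change from E14.5 to E16.5 differed between female and male mesenchyme for 3 members, by the interaction term of the edgeR model. For Pdgfra the female change was lower than the male change by -0.81 on the log2 scale, with -0.61 in females and 0.20 in males. For Pdgfc the interaction was -0.89, with changes of -0.68 and 0.21. For Pdgfd, which rose in both sexes, it was 0.62, with changes of 1.59 and 0.97. Each of these interactions kept its direction and its call in all alternatives run.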

How the results depend on the processing

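Over 218 pairs of a called member difference and an alternative, which share refits, none reversed. Of 17 called member differences, 15 kept direction and call under every alternative run. The exceptions are Pdgfd between the sexes at E16.5 and Pdgfrb with age in females, which lost its call without the low-count filter (edgeR adjusted p = 0.0905), with the replicate block (0.0504) and without any of 5 libraries (0.0529 to 0.136). Members called rose from 2 to 5 with age in males without the low-count filter, and from 3 to 5 for the interaction with DESeq2 and with the replicate block. The share of all genes called under those settings is not given here, so these counts are not a result about the members. Beyond the changes above, the block added Pdgfd at E14.5 (-0.30, edgeR adjusted p = 0.0304) and Pdgfa with age in males (0.41, adjusted p = 0.0334) and changed no other call of a member. Same-numbered libraries did not pair by the rule at E14.5 (0.05 to 0.07) or in the uterus (0 to 0.24), although the block was fitted there too. With 1 library left out, members called in the uterus ranged from 1 to 2, and genes called from 553 to 1678 between the sexes at E14.5, from 1335 to 2687 for the interaction and from 1949 to 3521 in the uterus.

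Changes of sign were limited to differences that had not passed. Pdgfb with age in females was -0.25 with the replicate block, -0.02 when scaled by library size alone and -0.27 to 0.28 with 1 library left out. In males it was 0.01 without the low-count filter and -0.16 to 0.23 with 1 library left out, and its interaction ranged from -0.26 to 0.29. With 1 library left out, Pdgfc between the sexes at E14.5 ranged from -0.03 to 0.14, and in the uterus Pdgfra ranged from -0.02 to 0.10, Pdgfrb from -0.0016 to 0.03 and the log2 receptor ratio from -0.04 to 0.07. The causes were not tested. The counts of Pdgfb, at most 52 in a library, limit what can be seen of it.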
